A study of Homo sapiens with 97 samples.

Results

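The transcripts described here encode 39 cell surface receptors and adhesion proteins of human cells: growth factor receptor kinases, Notch receptors and a ligand, integrins, Wnt and lipoprotein receptors, TGF-beta and BMP receptor kinases, receptor phosphatases, a cadherin, guidance receptors, PTCH1 and the transferrin receptor. They were listed by gene name, and each name matched 1 Ensembl gene ID, so that 39 of 60675 IDs in every count table are members. Most are single-pass membrane proteins, whereas the frizzled receptors FZD1, FZD2, FZD3 and FZD7 and the patched receptor PTCH1 cross the membrane several times.

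The study mapped RNA inside HEK293T cells, an established human embryonic kidney line, by proximity labelling. Stable lines each carried APEX2, an engineered peroxidase, fused to a signal that sent it to a single site. Cells were given biotin-phenol, peroxide was added briefly, and the biotinylated RNA was purified. It was sequenced from poly(A) libraries, and for the mitochondrial matrix line also from total RNA libraries. The unlabelled controls of each line went through the same steps without peroxide. The 97 libraries fell into 49 groups, and labelled and unlabelled groups held 2 libraries each, called biological replicates by the submitters.

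The groups used first are ERM (APEX2 on the cytosolic face of the endoplasmic reticulum membrane), OMM (on the outer mitochondrial membrane) and NES (free in the cytosol), each labelled and unlabelled without a drug. OMM and NES cells were also treated with cycloheximide, which stalls ribosomes on mRNA, with puromycin, which releases nascent chains, or with CCCP, an uncoupler of mitochondria, each labelled and unlabelled. The same pair of lines was labelled after 3, 6, 9 and 30 min and 2 h of nocodazole, which depolymerises microtubules, with unlabelled libraries at 3 and 30 min. Nuclear and cytosol fractions of HEK293T cells, separated biochemically, had 2 libraries each. Doses of the drugs were not stated in the labels, and each line is a single stable line as far as they say. In these bulk samples fewer cells that carry an RNA and less of it per cell cannot be told apart.

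Receptors and adhesion proteins enter the secretory pathway while they are being made. A hydrophobic signal peptide or membrane segment at the start of the nascent chain is bound by the signal recognition particle, which brings the ribosome and its mRNA to the translocon of the endoplasmic reticulum, and the finished protein later travels to the plasma membrane. Transferrin receptor is a type II protein that uses its internal membrane segment as the signal, while most of the others carry a cleaved signal peptide at the N-terminus.

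The start of the coding sequence is shown because it encodes the signal peptide of most members; the membrane segment of TFRC lies further along. Each sequence runs for 72 bases from the first base of the start codon, in lower case with every adenine in capitals. The sequences come from GENCODE 29 transcripts on GRCh38. NOTCH2, TGFBR1 and LRP5 are members with few adenines, ROBO1 lies between, and TFRC and ITGB1 have many; CTNNB1, which encodes the cytosolic adhesion protein beta-catenin, is given for contrast and is no member.
NOTCH2: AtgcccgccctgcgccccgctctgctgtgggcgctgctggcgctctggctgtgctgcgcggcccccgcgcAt
TGFBR1: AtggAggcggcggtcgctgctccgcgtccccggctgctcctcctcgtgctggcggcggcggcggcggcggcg
LRP5: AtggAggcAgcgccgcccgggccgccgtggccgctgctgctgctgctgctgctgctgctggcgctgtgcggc
ROBO1: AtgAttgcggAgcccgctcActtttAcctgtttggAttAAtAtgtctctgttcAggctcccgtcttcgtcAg
ITGB1: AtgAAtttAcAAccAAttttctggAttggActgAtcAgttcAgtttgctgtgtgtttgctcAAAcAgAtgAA
TFRC: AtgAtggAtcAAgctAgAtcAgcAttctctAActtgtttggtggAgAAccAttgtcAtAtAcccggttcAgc
CTNNB1: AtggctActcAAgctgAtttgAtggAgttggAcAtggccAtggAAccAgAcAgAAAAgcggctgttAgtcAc

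The start codons of these transcripts begin at position 120069406 on the minus strand of chromosome 1 for NOTCH2, 99105206 on the plus strand of chromosome 9 for TGFBR1 and 68312715 on the plus strand of chromosome 11 for LRP5. ROBO1 starts at 79018461 on the minus strand of chromosome 3, ITGB1 at 32935558 on the minus strand of chromosome 10, TFRC at 196077099 on the minus strand of chromosome 3 and CTNNB1 at 41224069 on the plus strand of chromosome 3. In the 69 bases after the start codon the median adenine share was 5.8% over the 39 members, against 20.3% over 19559 protein-coding genes. The share lay below that all-gene median in 36 members; the exceptions were ITGB1 at 27.5%, TFRC at 26.1% and BMPR1A, a BMP receptor kinase, at 24.6%. The same median was 10.1% over 73 other surface proteins, 11.6% over 32 secreted ligands and matrix proteins and 24.6% over 41 cytosolic signalling partners. At least 3 in-frame CTG codons, a leucine codon, stood in these bases in 18 members (46.2%), against 16.8% of protein-coding genes. The share was 47.9% over the other surface proteins, 56.2% over the secreted list and 4.9% over the cytosolic partners. Coding sequences were long, with a median of 3153 bases over the members against 1278 over protein-coding genes. This median was 2835 bases over the other surface proteins, 1233 over the secreted list and 1716 over the cytosolic partners.

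Library totals ran between 9330259 and 76714068 counts in the 36 construct libraries, 22749527 and 55763066 in the 24 drug libraries, 15473060 and 33966883 in the 28 nocodazole libraries and 34961110 and 44973261 in the 4 fraction libraries. Of 9 markers of HEK293T cells 8 averaged at least 5 counts per 1000000 library counts (CPM), whereas 1 of 5 fibroblast markers, 0 of 4 leukocyte markers and 0 of 3 endothelial markers did. Some libraries stood apart by low complexity: genes well expressed elsewhere lacked any count in more than 2% of cases in 7 construct, 3 drug and 6 nocodazole libraries. Among those used below these were ERM labelled 1 (5.02%), NES unlabelled 1 (3.37%), OMM unlabelled 2 (4.06%), both unlabelled OMM libraries in cycloheximide (3.08% and 7.75%), NES puromycin unlabelled 2 (2.1%), all 4 unlabelled OMM libraries in nocodazole (2.98% to 16.3%), NES 3 min unlabelled 2 (6.77%) and OMM 2 h labelled 1 (4.58%). NucPore labelled 1 (2.21%) and unlabelled 1 (2.1%) belong here too, and the NIK and MITO total RNA libraries are given with their results. Their part in the results was not tested beyond leaving out each library in turn.

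The question for the ERM line was which transcripts were enriched beside the endoplasmic reticulum. With ERM, 26 of the 39 members were higher in labelled than in unlabelled libraries at an adjusted p under 0.05 in edgeR's quasi-likelihood test, and none was lower, also at an unadjusted p or by DESeq2; 5.26% of all 22680 genes tested were called higher. The median log2 fold change was 1.59 over the members and 0 over all genes. The count of called members depended on which library was left out and was lowest without ERM unlabelled 1, with the range given at the end. Every role group but the single reelin receptor LRP8 had a called member. The counts were 6 of 7 receptor tyrosine kinases, 2 of 4 Notch receptors and ligand, 2 of 8 integrins, 3 of 6 Wnt receptors, 4 of 4 TGF-beta and BMP receptor kinases, 3 of 3 receptor phosphatases and 4 of 4 cadherin and guidance receptors, with TFRC and PTCH1.

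Levels below are CPM after trimmed-mean (TMM) scaling within a table, and they are not corrected for length, so they are compared between libraries and not between genes. TFRC, which takes up iron bound to transferrin, had 649.5 and 727 CPM in ERM labelled libraries, against 224 and 181 CPM in unlabelled ones. Every labelled library lay above every unlabelled one, and the log2 fold change was 1.76 (SE 0.186, adjusted p = 1.05e-08, edgeR). NOTCH2, a receptor for ligands on neighbouring cells, had 834 and 848.5 CPM labelled, against 224.5 and 165 CPM unlabelled. The groups were far apart, with a log2 fold change of 2.11 (SE 0.246, adjusted p = 7.49e-08, edgeR), the largest among called members after FZD3 at 2.17 (SE 0.452).

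Among the receptor tyrosine kinases, IGF1R, the receptor for insulin-like growth factor I, had 216 and 233 CPM in ERM labelled libraries, against 61.8 and 53.1 CPM unlabelled. This was a log2 fold change of 1.96 (SE 0.286, adjusted p = 3.94e-06, edgeR). INSR, the insulin receptor, was higher by 1.80 (SE 0.387) and ERBB2, a partner of the EGF receptor family, by 1.74 (SE 0.389). The fibroblast growth factor receptors FGFR1, FGFR2 and FGFR3 were higher by 1.02, 1.61 and 1.19. EGFR was the member of the group outside the call, with 52.6 and 59.2 CPM labelled against 29.7 and 12.5 CPM unlabelled (log2 fold change 1.40, SE 0.631, adjusted p = 0.165, edgeR).

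Of the TGF-beta family kinases, TGFBR1, the type I receptor for TGF-beta, had 244 and 312 CPM in ERM labelled libraries, against 81.2 and 64.35 CPM unlabelled. Its log2 fold change was 1.93 (SE 0.284, adjusted p = 4.55e-06, edgeR). The activin receptor ACVR1B was higher by 1.94, and the BMP receptors BMPR1A and BMPR2 by 1.73 and 1.36. PTPRF, a receptor phosphatase of the LAR family, had 683.5 and 519.9 CPM labelled, against 129.7 and 164 CPM unlabelled. The difference was 2.03 on the log2 scale (SE 0.237, adjusted p = 7.14e-08, edgeR), and the receptor phosphatases PTPRK and PTPRS were higher by 1.34 and 1.12. ROBO1, the receptor for the guidance cue SLIT, had 671 and 762 CPM labelled, against 195.7 and 166 CPM unlabelled. It was higher by 1.99 (SE 0.215, adjusted p = 1.9e-08, edgeR), with the plexins PLXNA1 and PLXNB2, receptors for semaphorins, at 1.94 and 1.16 and N-cadherin, CDH2, at 1.59.

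The Wnt group was divided. LRP5, a Wnt co-receptor, had 173 and 131 CPM in ERM labelled libraries, against 51.1 and 56.2 CPM unlabelled. It was called at 1.5 (SE 0.312, adjusted p = 0.000639, edgeR), as were its paralog LRP6 at 1.70 and the frizzled receptor FZD3. FZD7 stood just outside the threshold at 1.09 (adjusted p = 0.0539, edgeR), and FZD1 and FZD2 were at 1.28 (SE 0.871) and 0.61 (SE 0.841) without a call. PTCH1, the receptor for hedgehog proteins, had 38.5 and 49.5 CPM labelled, against 9.41 and 12.6 CPM unlabelled, and was higher by 2.00 (SE 0.508, adjusted p = 0.00545, edgeR). LRP8, a receptor for reelin and apolipoprotein E, had 38.5 and 50.75 CPM labelled, against 29.2 and 25.8 CPM unlabelled. The LRP8 groups did not overlap, yet 0.70 with an SE of 0.501 did not pass the test (adjusted p = 0.422, edgeR).

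Integrins pair an alpha with a beta chain to bind matrix, and 2 of the 8 members passed the test with ERM. ITGB1, the beta chain shared by most alpha chains, had 398 and 423.5 CPM labelled, against 201.5 and 141 CPM unlabelled. It was higher by 1.26 (SE 0.244, adjusted p = 0.000268, edgeR), and ITGAV, an alpha chain for RGD ligands, by 1.67 (SE 0.315). The alpha chains ITGA2, ITGA5, ITGA6 and ITGA3 were at 2.40, 1.04, 0.90 and 0.46 with SEs between 0.512 and 1.436, and ITGB5 was at 1.03 (SE 0.405), none with a call. ITGB3 averaged 0.643 CPM over the construct libraries and had 0 counts in both OMM unlabelled libraries, so that no fold is given for it there. NOTCH1 was called at 1.95, while NOTCH3 at 0.95 (adjusted p = 0.053, edgeR) and JAG1, a ligand of Notch, at 1.32 (SE 1.342) were not.

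**Figure D1:**
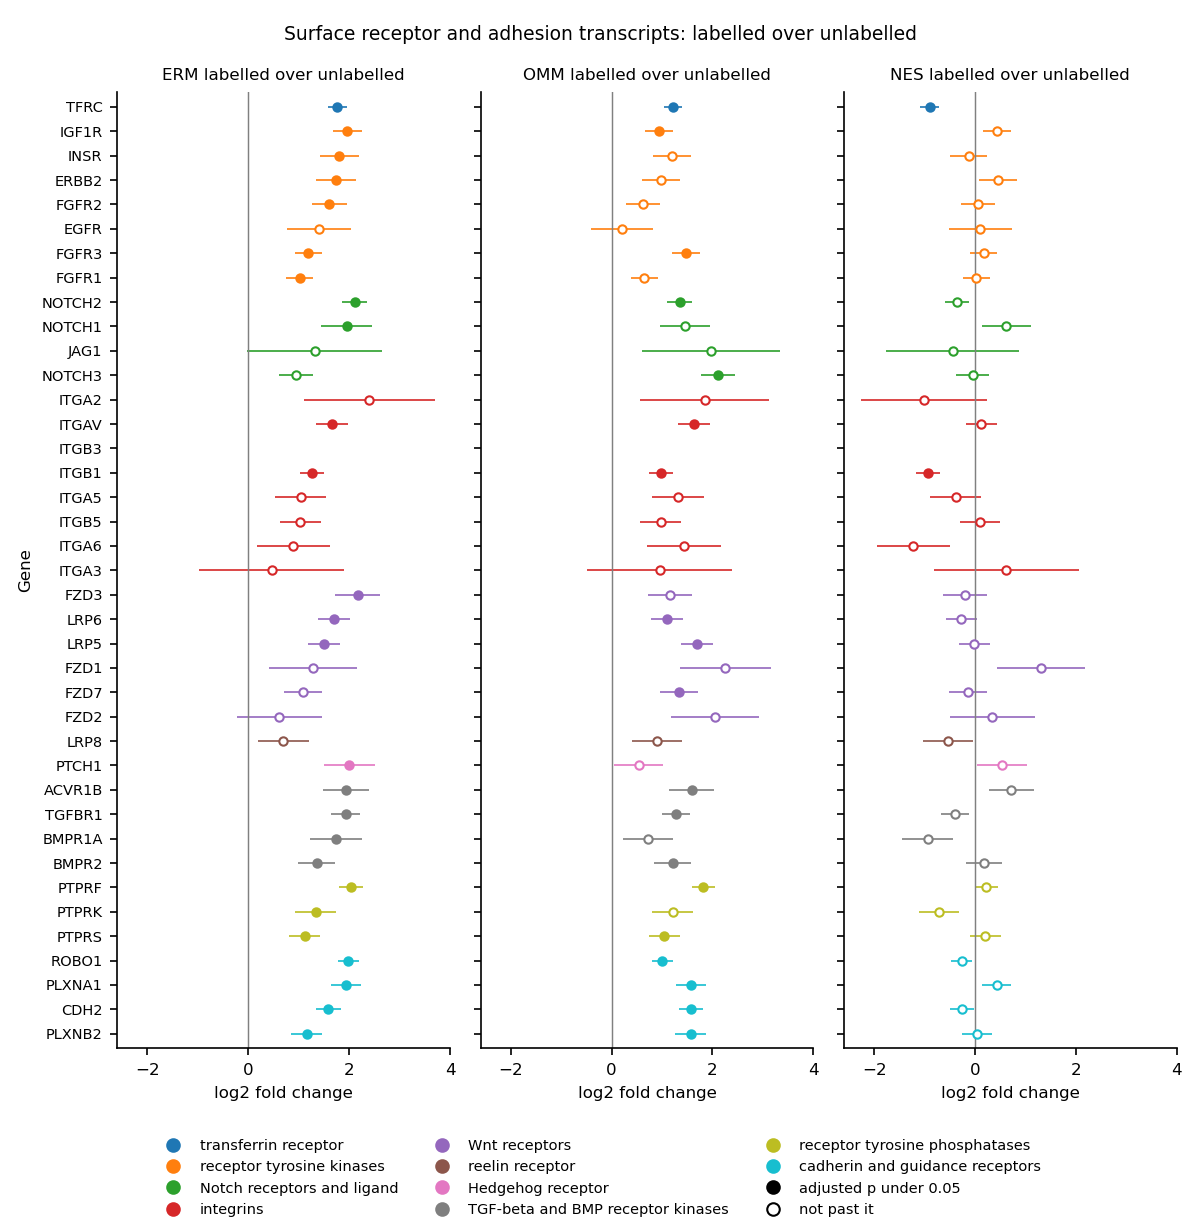
Log2 fold change of labelled over unlabelled libraries (x axis) for the members in rows, ordered by role, with ERM, OMM and NES in separate panels. Points are edgeR estimates from 2 labelled and 2 unlabelled libraries, bars are standard errors, and filled points passed an adjusted p of 0.05. ITGB3 is not drawn. ERM and OMM points lie to the right of 0, with 26 and 19 calls, whereas NES points scatter around 0 with 2 lower calls.

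Genes around these pathways moved to different extents with ERM. Of 73 other surface proteins 34 were higher (median 1.33), including the netrin receptor NEO1 at 1.96, the desmosomal cadherin DSG2 at 1.52 and CELSR2, a planar polarity cadherin, at 1.94. Of 32 secreted ligands and matrix proteins 10 were higher (median 1.14), with SLIT2, the ligand of ROBO1, at 1.66, the follistatin-like protein FSTL1 at 1.38 and the laminin chain LAMC1 at 1.65. Of 41 cytosolic signalling partners 6 were higher and 4 lower (median 0.32), against 5.26% of all genes higher and 7.6% lower. VCL, the adhesion linker vinculin, was higher by 1.72 and the FGF receptor adaptor FRS2 by 1.46, while the GTPase HRAS fell by 1.81 on the log2 scale.

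At the outer mitochondrial membrane fewer receptors were called, most of them called with ERM too. OMM labelling gave 19 of 39 members higher and none lower (also none lower at an unadjusted p or by DESeq2), where 3% of all genes were called higher and 1.98% lower (median 1.28 over the members, 0.06 over all genes; edgeR). Of these, 17 were also called with ERM, which is 89.5% of the OMM calls and 65.4% of the ERM calls. ERM called 66.7% of all 39 members, and the same overlap over all genes was not counted. The remaining calls with OMM were NOTCH3 at 2.10 and FZD7 at 1.34. The count depended on single libraries: it was 12 without OMM labelled 1, 11 without OMM labelled 2 and 8 without OMM unlabelled 2.

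TFRC had 637 and 628 CPM in OMM labelled libraries, against 294 and 249 CPM unlabelled. The groups were apart by 1.22 on the log2 scale (SE 0.183, adjusted p = 2.55e-05, edgeR). PTPRF had 647.5 and 755.5 CPM labelled against 208 and 189.6 CPM unlabelled, a log2 fold change of 1.82 (SE 0.235, adjusted p = 2.6e-06, edgeR). LRP5 had 129 and 163.5 CPM labelled against 47.9 and 42.6 CPM unlabelled, which was higher by 1.69 (SE 0.314). In these genes too no unlabelled library reached a labelled one.

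NOTCH2 had 595 and 681.5 CPM in OMM labelled libraries, against 333 and 169 CPM unlabelled (log2 fold change 1.35, SE 0.241, adjusted p = 0.000291, edgeR). TGFBR1 had 146 and 193 CPM labelled against 84.5 and 54.8 CPM unlabelled, higher by 1.28. ROBO1 had 450.4 and 512 CPM labelled against 253 and 227 CPM unlabelled, higher by 1.01. The unlabelled OMM libraries differed from each other more than the labelled ones did for NOTCH2.

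IGF1R had 191 and 211.5 CPM in OMM labelled libraries, against 106.5 and 104 CPM unlabelled, and was called at 0.93 (adjusted p = 0.043, edgeR). ITGB1 had 399 and 343 CPM labelled against 200.3 and 178 CPM unlabelled, and was called at 0.97 (adjusted p = 0.0105, edgeR). PTCH1 had 35.2 and 37.1 CPM labelled against 15.1 and 34.7 CPM unlabelled, so that the 2 groups nearly touched and no call was made (0.54, SE 0.490). LRP8 had 61.3 and 44.7 CPM labelled against 38.97 and 17.8 CPM unlabelled, also without a call at 0.90 (SE 0.502). The lowest values with OMM were EGFR at 0.20, PTCH1, and FGFR2 at 0.62; the highest with a usable fold were FZD1 at 2.25 (SE 0.899, no call) and NOTCH3.

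**Figure D2:**
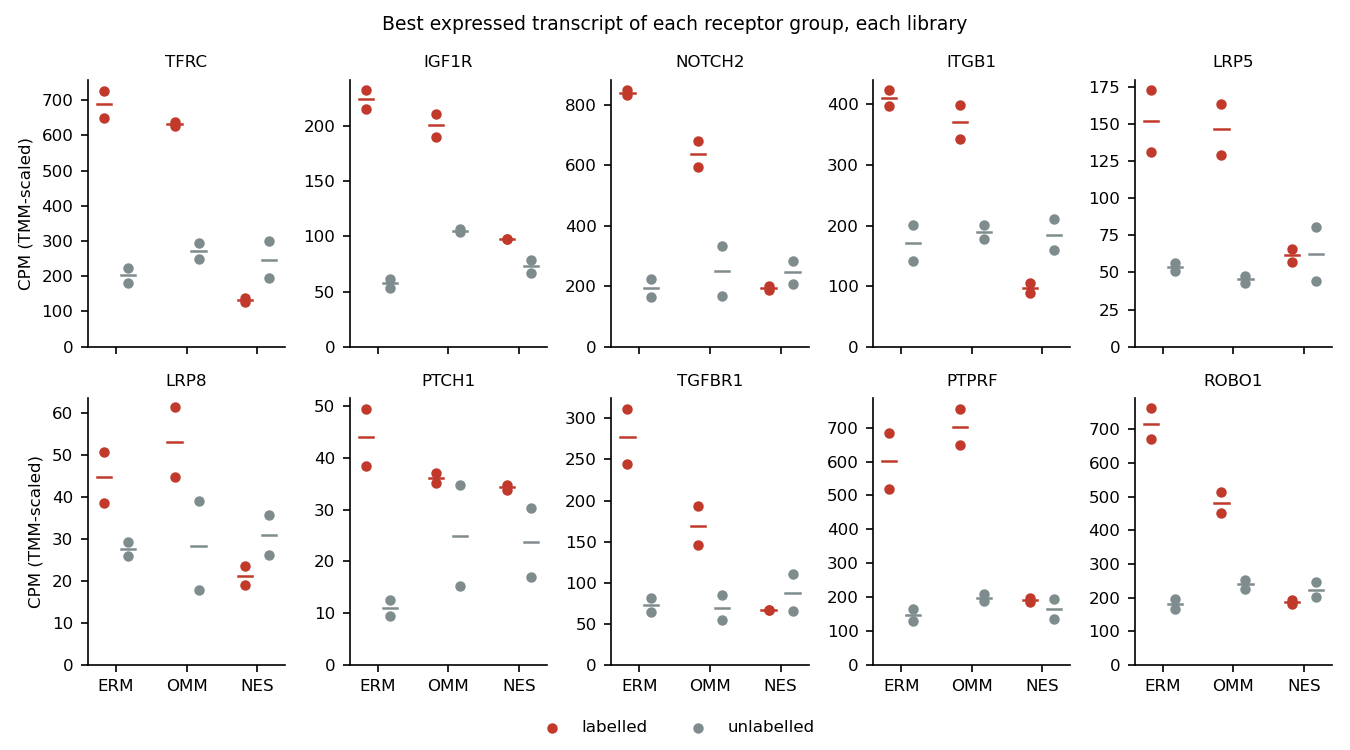
CPM after TMM scaling (linear y axes starting at 0) of TFRC and of the best expressed member of each other role group, in the 12 libraries of ERM, OMM and NES (x axis). Each point is 1 library, labelled to the left of unlabelled, and bars are means of 2 libraries. For TFRC the labelled points lie above the unlabelled ones with ERM and OMM, and below them with NES.

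NES labelling, which marks RNA in the bulk cytosol, gave no higher member in edgeR, also at an unadjusted p or by DESeq2, where 1.38% of all genes were called higher, and 2 lower members, where 2.5% of all genes were called lower (median 0.03 over the members, 0.18 over all genes; edgeR). TFRC had 139 and 126 CPM in NES labelled libraries, against 299 and 195 CPM unlabelled, and fell by 0.90 on the log2 scale (SE 0.182, adjusted p = 0.00214, edgeR). ITGB1 had 105.5 and 88.7 CPM labelled, against 210.3 and 159 CPM unlabelled, and fell by 0.93 (SE 0.243, adjusted p = 0.0202, edgeR). In both genes the labelled libraries lay below the unlabelled ones. The other 37 members had no call. ITGA6, ITGA2 and BMPR1A gave the lowest values at -1.22, -1.02 and -0.94, while FZD1 at 1.31 and ACVR1B at 0.72 were among the highest. The 2 lower calls became 1 without NES labelled 1, 0 without NES labelled 2, 0 without NES unlabelled 1 and 4 without NES unlabelled 2, and a fit on the 4 NES libraries alone gave 0.

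The difference between enrichments was tested directly as a difference of the labelled over unlabelled contrasts. Enrichment was stronger with ERM than with NES for 16 members, against 2.15% of all genes, and none was weaker (median 1.51 over the members, -0.45 over all genes; edgeR). These were BMPR1A, TFRC, NOTCH2, FZD3, TGFBR1, ROBO1, ITGB1, PTPRK, LRP6, INSR, CDH2, PTPRF, ITGAV, IGF1R, LRP5 and PLXNA1. TFRC differed by 2.66 (SE 0.260, adjusted p = 5.45e-08) and NOTCH2 by 2.46 (SE 0.339, adjusted p = 1.59e-05) in edgeR's test. The smallest called difference was PLXNA1 at 1.51 (SE 0.416, adjusted p = 0.0306, edgeR). The count was 7 without ERM unlabelled 2, 8 without NES labelled 1 and 8 without NES labelled 2.

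Enrichment was stronger with OMM than with NES for 9 members, against 1.58% of all genes, and weaker for none (median 1.44, all genes 0; edgeR). They were NOTCH3, TFRC, ITGB1, CDH2, LRP5, NOTCH2, TGFBR1, PTPRF and ROBO1, with differences between 1.27 for ROBO1 and 2.15 for NOTCH3. This count was 3 without NES labelled 2, 5 without OMM labelled 2 and 5 without OMM unlabelled 2, and DESeq2 gave 15. ERM against OMM gave no call among the members, where 1.78% of all genes were called in either direction. At an unadjusted p under 0.05 edgeR gave 6 members higher with ERM and 1 lower, against 2.76% of all genes higher and 10.9% lower, and DESeq2 called 1 in each direction. The median difference was 0.22 over the members and -0.28 over all genes, and without OMM unlabelled 1 there was 1 call. Both comparisons with NES use the same NES libraries, and ERM and OMM share no library.

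The drugs asked whether enrichment at the mitochondrial membrane changed when ribosomes were held on or released from mRNA. With OMM in cycloheximide 27 of 39 members were higher and none lower, against 12.4% of 21441 genes higher (median 1.72, all genes 0.40; edgeR). In puromycin 4 members were higher, against 0.942% of genes (median 0.58, all genes 0.08). In CCCP 16 were higher, against 3.27% of genes (median 0.93, all genes 0.14). All 4 calls in puromycin, PTPRF, NOTCH2, ITGAV and ITGB1, were also called in CCCP and in cycloheximide, and all 16 calls in CCCP were called in cycloheximide. Of all members 69.2% were called in cycloheximide and 41% in CCCP, and the overlap over all genes was not counted. These counts come from 1 fit of all 24 drug libraries. Fits on the 4 libraries of each comparison alone gave 7 in cycloheximide and 17 in puromycin, the reverse order. Without the unlabelled 1 or unlabelled 2 library of low complexity the cycloheximide count was 29 or 28. The puromycin count was 2, 1 and 2 without its labelled 1, unlabelled 1 and unlabelled 2 library, and the CCCP count was 6, 5 and 7 without its labelled 1, labelled 2 and unlabelled 1 library.

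TFRC had 1204 and 1177 CPM in OMM labelled libraries in cycloheximide, against 267 and 346 CPM unlabelled. In puromycin it had 323 and 326 CPM labelled, against 226.5 and 216 CPM unlabelled, and in CCCP 478 and 485 CPM labelled, against 213.5 and 319.5 CPM unlabelled. Unlabelled levels in cycloheximide lay above those in puromycin and CCCP overlapped both, while the labelled libraries ran in the order cycloheximide, CCCP, puromycin from high to low. NOTCH2 had 1086 and 1020 CPM labelled against 212 and 199 CPM unlabelled in cycloheximide. In puromycin NOTCH2 had 426 and 379 CPM labelled against 174.7 and 197.6 CPM unlabelled. NOTCH2 was enriched in each drug, by 2.36 in cycloheximide, 1.45 in CCCP and 1.11 in puromycin (SEs between 0.150 and 0.156).

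The difference between cycloheximide and puromycin at OMM was called for 9 members, all stronger in cycloheximide, against 4.53% of all genes (median 1.05, all genes 0.37; edgeR). They were ITGA5, FGFR2, CDH2, TFRC, NOTCH2, PTPRF, ITGB1, JAG1 and FZD2. TFRC differed by 1.41 (SE 0.283, adjusted p = 0.00434), NOTCH2 by 1.24 (SE 0.210, adjusted p = 0.00091) and PTPRF by 1.23 (SE 0.315, adjusted p = 0.024). FGFR2 had 120.2 and 115 CPM labelled against 18.9 and 24.0 CPM unlabelled in cycloheximide, and 46.2 and 47.05 CPM labelled against 47.3 and 38.65 CPM unlabelled in puromycin. Its difference was 2.34 (SE 0.351, adjusted p = 0.000294, edgeR), and its unlabelled libraries in cycloheximide lay below those in puromycin. CDH2 had 533 and 539 CPM labelled against 100.7 and 95.05 CPM unlabelled in cycloheximide, and 175 and 162 CPM labelled against 102 and 125 CPM unlabelled in puromycin, a difference of 1.88 (SE 0.275). The count was 19 without the unlabelled 1 library in cycloheximide and 5 without either labelled library in puromycin.

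JAG1 and FZD2 have no usable fitted fold in cycloheximide. JAG1 had 0 counts in both unlabelled OMM libraries, and its labelled mean of 17.5 CPM was at least 190-fold higher than a floor of 3 counts per library (0.0923 CPM). FZD2 had 1590 counts in the labelled libraries and 1 in the unlabelled ones, a depth-corrected ratio of 1670 with an exact 95% interval of 299 to 65900, which covers counting error only. The fitted value and the bound of JAG1 both lie above the median over members in cycloheximide, so that median, 1.72, could not change with the bound. Both unlabelled libraries are among those with low complexity.

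CCCP against puromycin at OMM gave no call in edgeR, where 0% of all genes were called, with 3 members stronger in CCCP at an unadjusted p under 0.05, as were 5.09% of all genes, and 0 calls by DESeq2 (median 0.36, all genes 0.02). NES labelling was higher for 6 members in cycloheximide, against 7.91% of genes, for 2 in puromycin, against 3.24%, and for 4 in CCCP, against 3.28%, which are 15.4%, 5.13% and 10.3% of the members. The largest NES values were IGF1R at 1.53 in cycloheximide and ITGAV at 1.30 in CCCP. The NES counts were 0 and 1 in cycloheximide without its labelled 1 and unlabelled 1 library. They ranged between 0 and 6 in puromycin and between 0 and 2 in CCCP when 1 of the 4 libraries was left out; the counts without labelled 1, labelled 2, unlabelled 1 and unlabelled 2 were 1, 0, 6 and 1 in puromycin and 1, 0, 2 and 1 in CCCP.

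The direct test of OMM against NES in cycloheximide called 15 members, against 9.38% of genes (median 1.38, all genes 0.27; edgeR). They were FGFR2 at 2.39, PTPRF at 2.23, PLXNB2 at 2.20, CDH2 at 2.12, PTPRK at 1.99, ITGB1 at 1.95, NOTCH2 at 1.80, PLXNA1 at 1.72, LRP5 at 1.66, TFRC at 1.62, ITGB5 at 1.54, PTPRS at 1.38 and ITGAV at 1.29, with JAG1 and FZD2. The same test in puromycin called none, where 0.0979% of genes were called. Unadjusted p-values under 0.05 were found for 3 members and 3.46% of all genes in the higher direction, DESeq2 called 1, and edgeR called 2 without NES unlabelled 1. In CCCP it called none, where 0.00933% of genes were called, while 6 members and 5.25% of all genes were higher at an unadjusted p under 0.05 and DESeq2 called 2. In cycloheximide the fit on the 8 libraries concerned gave 8 members.

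**Figure D3:**
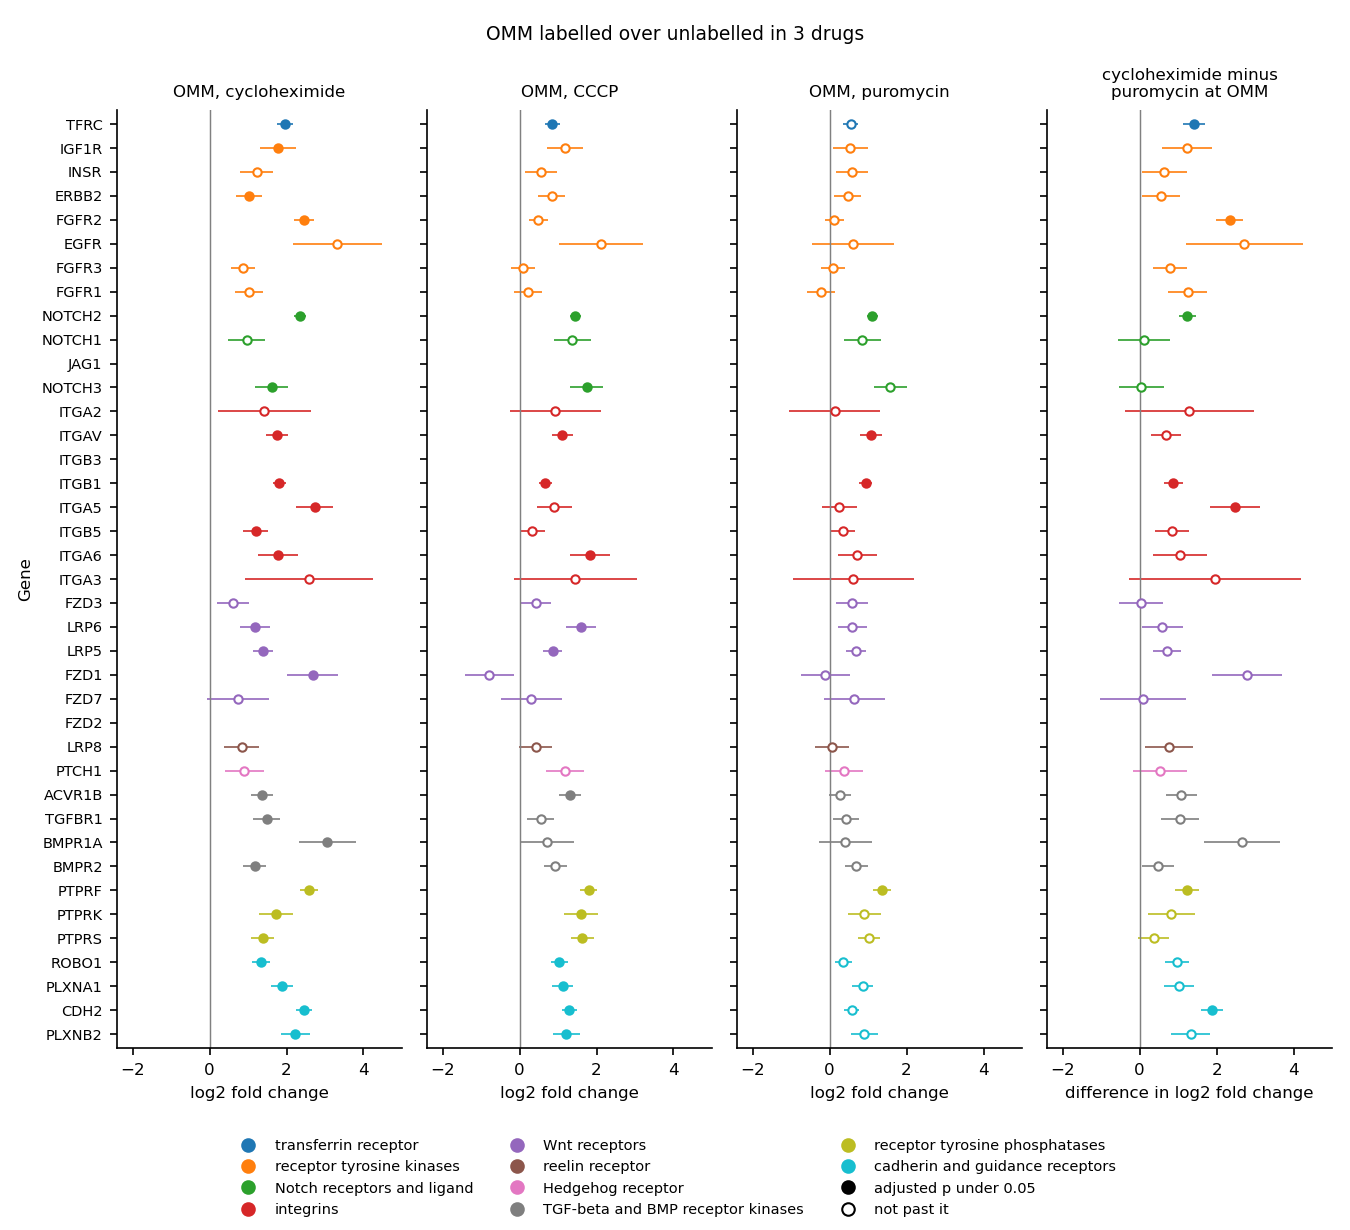
Log2 fold change of labelled over unlabelled OMM libraries (x axis) for the members in rows, coloured by role, in cycloheximide, CCCP and puromycin, with the cycloheximide minus puromycin difference in the last panel. Points are edgeR estimates from 2 libraries a group, bars are standard errors, and filled points passed an adjusted p of 0.05. JAG1, FZD2 and ITGB3 are not drawn in any panel because their unlabelled counts in cycloheximide are at or near 0. With JAG1 and FZD2 counted for cycloheximide, the calls number 27, 16 and 4.

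The OMM and NES lines were next compared after increasing times in nocodazole. In the early libraries (3, 6 and 9 min) enrichment was stronger with OMM than with NES for 11 members, against 6.09% of 19611 genes (median 1.16, all genes 0.41; edgeR). In the late libraries (30 min and 2 h) it was stronger for 6, against 2.87% of genes (median 0.68, all genes 0.26), and for 2 in a fit on the libraries of that comparison alone. All 6 late calls, FZD1, PLXNA1, PTPRF, PTPRS, TFRC and ITGB1, were early calls too, where 28.2% of all members were early calls. Both contrasts use the same unlabelled libraries, so their calls are not independent. The early calls also held FGFR3, CDH2, NOTCH2, TGFBR1 and JAG1. The unlabelled OMM libraries carried 1, 0, 152 and 0 counts of FZD1 and 0, 0, 229 and 638 of JAG1, so no fold is given for either.

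PTPRF differed by 1.83 early (SE 0.203, adjusted p = 3.87e-06) and 1.29 late (SE 0.222, adjusted p = 0.0016) in edgeR's test. TFRC differed by 1.36 early (SE 0.190) and 0.98 late (SE 0.208), PTPRS by 1.85 and 1.27, and PLXNA1 by 1.74 and 1.51. ITGB1 differed by 1.27 early and 0.90 late. Late against early, tested on the labelled libraries, called no member, where 0.0102% of all genes were called in either direction; 5 members were lower late at an unadjusted p under 0.05 in edgeR, as were 3.47% of all genes, and 0 were called by DESeq2. The median difference was -0.34 over the members and -0.04 over all genes, with 5 of 39 members above 0, and 3 members were called in a fit on those labelled libraries alone. The early count was 20 without OMM 30 min unlabelled 1 and 17 without OMM 3 min unlabelled 1. The late count was 14 and 12 without these same libraries and 12 without OMM 3 min unlabelled 2, but 3 without NES 2 h labelled 1, NES 30 min labelled 1 or NES 30 min labelled 2.

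By time, both OMM labelled libraries lay above both NES labelled libraries for 33, 37, 32, 30 and 18 of 39 members at 3, 6, 9 and 30 min and 2 h. The same held for 26.8%, 25.4%, 15.7%, 17.4% and 13.4% of all genes tested. The median log2 ratio of OMM to NES over the members was 1.06, 1.00, 0.73, 0.73 and 0.51, while that over all genes lay between -0.12 and -0.02. Without OMM 2 h labelled 1, of low complexity, an alternative chosen after seeing the data, the remaining library lay above both NES libraries for 24 members and 28.8% of all genes at 2 h, with a median ratio of 0.42. TFRC had a lowest, median and highest level of 600.1, 722 and 917 CPM over 10 OMM labelled libraries, against 206, 271 and 303.5 CPM over 10 NES labelled libraries. PTPRF had 453, 600.5 and 1045 CPM over the OMM labelled libraries, against 186, 236 and 298 CPM over the NES labelled ones. For both genes the lowest OMM library lay above the highest NES library.

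ITGB1 had a lowest, median and highest level of 195, 249.7 and 308 CPM over the OMM labelled libraries, against 96.2, 111 and 147 CPM over the NES labelled ones, again without overlap. NOTCH2 had 529, 608 and 801 CPM, against 267, 312 and 415 CPM, without overlap. The other members described by library overlapped: IGF1R had 153, 194.9 and 214 CPM over the OMM labelled libraries, against 119, 156 and 202.5 CPM over the NES labelled ones. TGFBR1 had 131, 188 and 250.5 CPM against 102, 113 and 162 CPM, ROBO1 had 313, 397 and 452 CPM against 226, 264.5 and 379.5 CPM, and LRP5 had 44.5, 83.6 and 207.5 CPM against 29.55, 56.5 and 72.4 CPM, OMM first in each pair. LRP8 had 33.25, 43.5 and 53.2 CPM against 23.9, 28.7 and 48.5 CPM. PTCH1 had 22.6, 37.9 and 53.9 CPM against 20.6, 38.2 and 66.7 CPM, so its levels covered the same range.

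**Figure D4:**
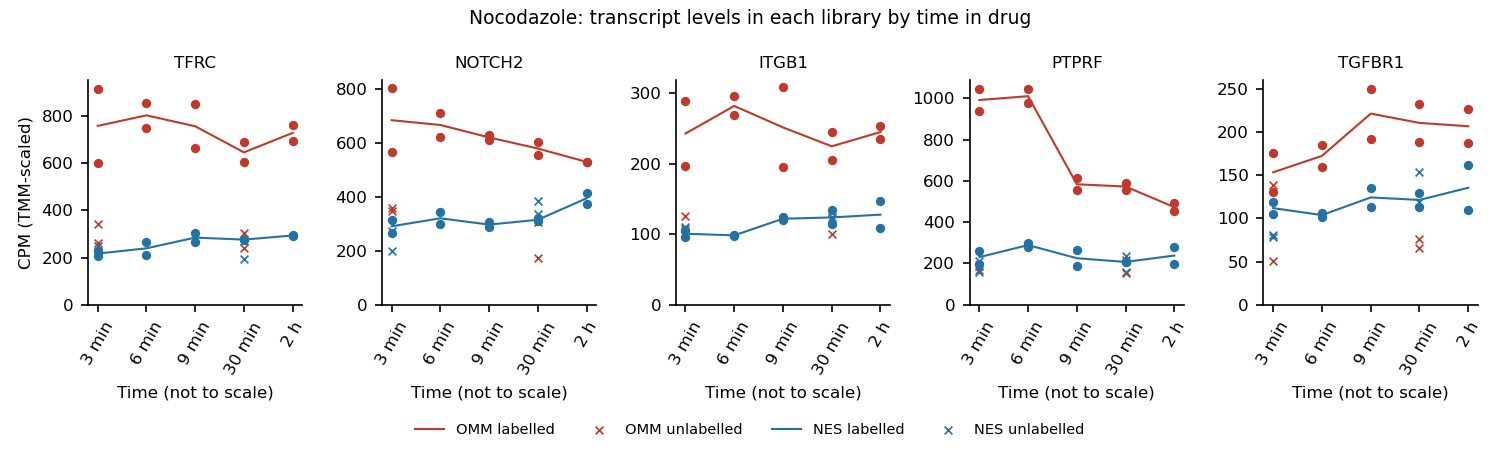
CPM after TMM scaling (linear y axes starting at 0) of TFRC, NOTCH2, ITGB1, PTPRF and TGFBR1 after 3, 6, 9 and 30 min and 2 h of nocodazole (x axis, not to scale). Dots are OMM and NES labelled libraries with lines through their means, and crosses are unlabelled libraries at 3 and 30 min. The lowest OMM labelled library of TFRC, at 600.1 CPM, lies above its highest NES labelled library, at 303.5 CPM.

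Biochemical fractions gave a measure without APEX2. The nuclear fraction held more of 31 of 38 tested members than the cytosol fraction, against 34.2% of 19115 genes (edgeR, median 1.64, all genes 0.11). No member was called lower, against 27.8% of genes. At an unadjusted p under 0.05 edgeR gave 2 members lower, as were 29.7% of all genes, and DESeq2 called 2 lower. ITGB3 was untested because its counts were low. TFRC had 386 and 345 CPM in nuclear libraries, against 141 and 89.8 CPM in cytosol libraries, higher by 1.66 (SE 0.212, adjusted p = 3.43e-05, edgeR). NOTCH2 had 288 and 295.5 CPM nuclear against 74.2 and 62.05 CPM cytosol, higher by 2.10 (SE 0.174). The highest were JAG1 at 2.70, PTPRS at 2.35 and ITGA5 at 2.33. Higher landmark transcripts were MALAT1 at 4.52, NEAT1 at 4.20, CANX at 1.77, GLDC at 1.59, ALDH18A1 at 1.27 and SCD at 0.80. Those lower in the nuclear fraction were ACTB at -1.98, MT-CO1 at -2.89 and MT-ND5 at -3.44. CANX and SCD encode endoplasmic reticulum proteins, and how much of that membrane the nuclear fraction carried was not tested.

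All 7 receptor tyrosine kinases, all 4 Notch members, 6 of 7 integrins, 3 of 3 receptor phosphatases and 4 of 4 cadherin and guidance receptors were higher in the nuclear fraction. The Wnt receptors were divided, with LRP6, FZD2 and FZD7 called higher and LRP5, FZD1 and FZD3 without a call. The TGF-beta and BMP receptor kinases differed too, with 1 of 4 higher, ACVR1B at 1.03. TGFBR1 had 45.1 and 43.5 CPM nuclear against 55.7 and 65.1 CPM cytosol, with a log2 fold change of -0.45 (SE 0.195, adjusted p = 0.0619, edgeR). BMPR2 had 35.2 and 35.3 CPM nuclear against 44.9 and 52.2 CPM cytosol, at -0.46 (SE 0.205, adjusted p = 0.066, edgeR), and BMPR1A was at -0.27. For TGFBR1 and BMPR2 the nuclear libraries lay below the cytosol ones, and DESeq2 called 2 members lower. Of the 26 members called with ERM, 21 were higher in the nuclear fraction, which is 80.8% of them and 67.7% of the fraction's calls. The 80.8% is near the 81.6% of all 38 tested members that were higher there. BMPR1A, BMPR2, TGFBR1, LRP5 and FZD3 were called with ERM and not in the fraction. The same test found 56 of 73 other surface proteins higher, 21 of 31 secreted proteins higher, and 5 of 41 cytosolic partners higher and 18 lower. Over all genes 34.2% were higher and 27.8% lower.

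**Figure D5:**
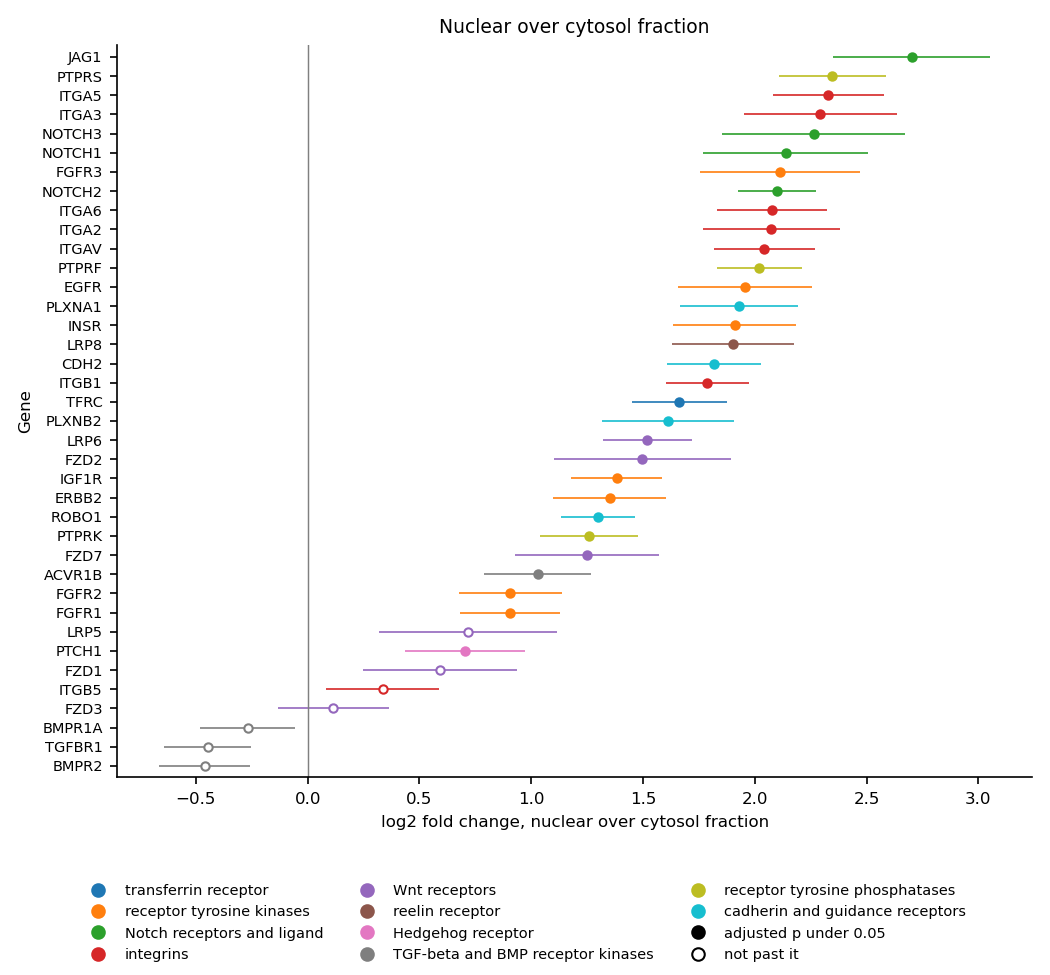
Log2 fold change of the nuclear over the cytosol fraction (x axis) for the 38 tested members in rows, highest at the top, coloured by role. Points are edgeR estimates from 2 libraries a fraction, bars are standard errors, and filled points passed an adjusted p of 0.05. JAG1 is highest at 2.70, and BMPR1A, TGFBR1 and BMPR2 lie below 0.

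Across the 38 members whose mean in the construct libraries reached 5 CPM, coding length and the log2 fold change of the nuclear fraction had a Pearson r of 0.51 and a Spearman rho of 0.50, as a description over genes that share the same 4 libraries. The same relation was 0.19 and 0.22 for ERM and 0.08 and 0.10 for OMM. Adenine share in the first codons had an r of 0.225 for ERM, -0.152 for OMM and -0.208 for the nuclear fraction. Over ERM, OMM and OMM in cycloheximide, 34 members were called higher in at least 1, against 15.8% of 20307 genes tested in both tables, and 16 in all, against 2.07%. EGFR, ITGA2, ITGA3, ITGB3 and LRP8 were the 5 called in none.

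Other sites of APEX2 enriched few members. With NLS, in the nucleus, 3 members were higher, against 2.78% of all genes: LRP8 at 1.77, FGFR3 at 1.55 and PLXNA1 at 1.06 (edgeR). FGFR3 had 185 and 166 CPM in NLS labelled libraries, against 61.1 and 58.8 CPM unlabelled. With LMA, at the nuclear lamina, 4 were higher, against 3.67% of genes: the Wnt co-receptor LRP6 at 1.83, FZD3 at 1.75, ITGAV at 1.33 and BMPR2 at 1.27. LRP6 had 88.8 and 105.7 CPM in LMA labelled libraries, against 28 and 26.6 CPM unlabelled. The NLS and LMA calls are 7.69% and 10.3% of the 39 members. The NLS count was 1 without labelled 1, labelled 2 or unlabelled 1, and the LMA count was 1 without labelled 1 and 2 without either unlabelled library.

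With NIK, in the nucleolus, 2 members were lower, against 3.96% of genes. FGFR1 had 39.9 and 37.1 CPM in NIK labelled libraries, against 97.2 and 94.3 CPM unlabelled, and fell by 1.32 on the log2 scale (adjusted p = 0.0022, edgeR). ITGA5 had 0.251 and 3.41 CPM labelled, against 31.2 and 27.9 CPM unlabelled, and fell by 4.03 (adjusted p = 3.99e-05, edgeR). Both NIK labelled libraries have low complexity, with 6.06% and 2.94% of well expressed genes lacking a count; the part of this in the result was not tested, and without NIK labelled 2 the count was 6. NucPore and KDEL gave no called member, where 0% of all genes were called higher with either. At an unadjusted p under 0.05 edgeR gave 1 higher and 2 lower members with NucPore, against 1.75% and 4.16% of all genes, and 0 with KDEL, and DESeq2 gave 1 lower and 0. The NucPore count was 3 without labelled 2 and 1 without unlabelled 2.

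With MITO, in the mitochondrial matrix, ROBO1 was the single member higher, against 0.873% of genes, and it was also the single one in the total RNA libraries, against 0.617%. It had 543 and 705.0 CPM in MITO labelled poly(A) libraries, against 187 and 211 CPM unlabelled, at 1.65 (SE 0.213, adjusted p = 3.8e-06, edgeR). In total RNA it had 400.8 and 448 CPM labelled, against 191 and 157 CPM unlabelled, at 1.29 (adjusted p = 0.0309, edgeR). The labelled 1 library in total RNA has low complexity, with 6.72% of well expressed genes lacking a count, and no member was called with the replicate number as a block. The value also depends on TMM scaling: per 1000000 counts of the library total, ROBO1 had 126 and 301 in labelled total RNA, against 272 and 225 in unlabelled total RNA, so the groups overlap there. The MITO count was 3 without labelled 1, and the total RNA count was 0 without labelled 1, labelled 2 or unlabelled 1.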

How the data were processed

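The values are raw read counts per gene, deposited by the authors as 5 count tables (constructs, drugs, nocodazole, fractions and MITO), each with 60675 Ensembl IDs. Trimmomatic, STAR, HTSeq, SAMtools, bedtools and DESeq2 and the build GRCh38 (hg38) are named in the submitters' processing notes; versions, and whether counting used the strand of the stranded poly(A) libraries, are not given in the sources used here. Gene names came from the deposited tables, and from GENCODE 29 for IDs they left unnamed. Every sample column was mapped by its name, and 0 other columns were left unused.

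Each table was fitted on its own with edgeR 4.0.16 in R 4.3.3: filterByExpr by group, TMM scaling, trended dispersion, 1 mean per group, and the quasi-likelihood test of a contrast, with Benjamini-Hochberg adjustment over all genes tested and a threshold of 0.05. SE is the absolute log2 fold change divided by the square root of the test's F. Comparisons between constructs or drugs are differences of labelled over unlabelled contrasts. Late against early nocodazole used labelled libraries alone. CPM values are TMM-scaled and comparable within a table only. With 2 libraries a group, precision rests on the spread shared over the table, and p-values measure the spread between these libraries.

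Members and lists were chosen with earlier results of these data known. Values in every library are given for TFRC and the best expressed member of each role group, by mean CPM over the construct libraries. Also named are the 3 highest and 3 lowest members in ERM, OMM, NES and fractions, members called in differences of contrasts, members called against most others, and of other lists up to 3 with the smallest p in ERM. Landmark transcripts are named for the fractions.

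Alternatives were DESeq2 1.42.0, RLE scaling, no filter on low counts, the libraries of a comparison alone, the replicate number as a block, and leaving out each library. The test was checked on counts simulated from these tables, where 63.6% of genes changed 8-fold and 10.4% of those changed 2-fold were called for ERM. The changed genes were drawn from those with higher counts and went up or down, and no simulated library was given low complexity. These rates need not hold for low-count members. Figures were drawn with matplotlib 3.10.9.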

Additional observations from a re-analysis of the deposited data

Results flagged for a closer look

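The effect of labelling differed between lines or drugs by a test of the difference itself, and the share of all genes called higher is given in brackets. It differed for 16 members in ERM against NES (2.15%) and 9 in OMM against NES (1.58%). In the drugs it differed for 15 in OMM against NES in cycloheximide (9.38%) and 9 in cycloheximide against puromycin at OMM (4.53%). The same test gave 11 members in OMM against NES in early nocodazole (6.09%) and 6 in late nocodazole (2.87%). All of these differences were positive, and their genes and values stand with each comparison.

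ROBO1 had a signal in a library outside the comparisons, the technical repeat of MITO labelled replicate 2, with 267 counts per 1000000 of the library total. The labelled libraries with which it shares its line had 307 and 282, against 171 and 216 in the unlabelled ones, on the same scale.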

How the results depend on the processing

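Counts of called members that moved by more than 1.5 times are given here by setting. With DESeq2 they were 1 in NucPore, 4 in MITO, 15 in OMM against NES, 2 in ERM against OMM, 7 in NES in puromycin, 1 in OMM against NES in puromycin, 2 in OMM against NES in CCCP, 14 in cycloheximide against puromycin and 2 in MITO total RNA. With RLE scaling NES in puromycin gave 1. Without the filter on low counts they were 3 in MITO, 8 in OMM in puromycin, 7 in NES in puromycin, 8 in NES in CCCP and 1 in OMM against NES in CCCP. Fitted on the libraries of a comparison alone they were 0 in NES, 5 in NLS, 0 in NIK, 4 in MITO, 1 in ERM against OMM, 7 in OMM in cycloheximide, 17 in OMM in puromycin, 0 in NES in cycloheximide and in NES in puromycin, 8 in OMM against NES in cycloheximide, 2 in late nocodazole and 3 in late against early nocodazole. The cause was not tested. With the replicate number as a block they were 4 in NIK, 2 in MITO, 3 in NES in cycloheximide and 0 in MITO total RNA, and no other count of members moved by more than 1.5 times under the block. A crossed pairing for MITO, added after seeing the data, gave 2. Deviations of same-numbered libraries, labelled and unlabelled or nuclear and cytosol, correlated between -0.17 and 0.15. With 2 libraries a group this gives no sign of pairing by number, but it cannot exclude such pairing.

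Leaving out each library in turn gave between 18 and 26 members in ERM, 8 and 19 in OMM, 0 and 4 in NES, 1 and 3 in NLS, 2 and 6 in NIK, 1 and 3 in LMA, 0 and 3 in NucPore, 1 and 3 in MITO, 0 and 1 in MITO total RNA and 0 in KDEL. The range was 7 to 14 in ERM against NES, 3 to 12 in OMM against NES and 0 to 1 in ERM against OMM. In the drugs it was 21 to 29 in OMM in cycloheximide, 1 to 3 in OMM in puromycin, 5 to 11 in OMM in CCCP, 0 to 8 in NES in cycloheximide, 0 to 6 in NES in puromycin and 0 to 2 in NES in CCCP. It was 10 to 22 in OMM against NES in cycloheximide, 0 to 2 in puromycin, 0 in CCCP, 5 to 19 in cycloheximide against puromycin and 0 in CCCP against puromycin. In nocodazole it was 9 to 20 early, 3 to 14 late and 0 for late against early, and 25 to 33 in the nuclear fraction. A left-out library leaves its group with 1, which is then assumed to vary like the others.

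Signs were followed for called members in every comparison. They were also followed for the best expressed member of a role group where its difference exceeded its SE. That second rule left out the NLS, NIK, LMA, NucPore, KDEL and MITO comparisons. Other uncalled members were not examined for sign. The signs that changed were of uncalled values, with 1 library left out. Log2 values ranged between -0.043 and 1.56 for TGFBR1 in OMM in CCCP. In NES in cycloheximide they ranged between -0.62 and 0.042 for LRP5 and -0.20 and 0.73 for PTPRF. For IGF1R in OMM against NES in early nocodazole they ranged between -0.26 and 1.23. With 2 libraries a group, low-count members such as ITGB3, ITGA2, ITGA3 and JAG1 had SEs above 1 in ERM. The ERM library of low complexity was labelled 1 (5.02%), and its part in these SEs was not tested.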
